A study of Mus musculus with 2 samples.

Results

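The genes described here are Col1a1 and Col1a2, which encode the α1 and α2 chains of type I collagen. They are 2 of the 27998 genes in the count tables, were taken by name, and were followed cell by cell through limb tendons of P7 mouse pups. The measurements given for them are the share of a cell's transcripts that they take up, the ratio of the 2 chains, the spread of both over cells, and the relation of the share to Scx and Ly6a.

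Type I collagen is the main structural protein of tendon, where tenocytes secrete it and pack it into long parallel fibrils. Most of it is assembled from 2 α1 chains and 1 α2 chain. The chains are hydroxylated and folded in the endoplasmic reticulum with the help of dedicated chaperones, are trimmed of their propeptides outside the cell, and are then cross-linked. Scx encodes scleraxis, a transcription factor of tendon cells, and Tnmd encodes tenomodulin, a membrane protein of differentiated tenocytes. Ly6a encodes Sca-1, a surface protein found on many mesenchymal progenitors. TGFβ signaling, which runs through the receptor encoded by Tgfbr2, is a known inducer of both collagen genes in fibroblasts.

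The study asked what happens to tendon cells when TGFβ signaling is lost in them. Each of the 2 libraries held cells released by enzymes from limb tendons of 2 pooled pups at P7, that is 7 days after birth. In the library labelled mutant, a floxed Tgfbr2 gene was deleted by ScxCre (Tgfbr2 f/-;ScxCre), so the deletion was driven in cells with a history of Scx expression. The genotype f/- names 1 floxed and 1 null allele, so the other cells of the limb also lacked 1 copy. The paper reports the Cre reporter in some non-tendon cells as well. The control library is labelled wild type, although its description also says Het, and the labels do not say which allele that refers to. All mice carried the tendon reporter ScxGFP and the Cre reporter RosaT, so that counts assigned to Scx include the ScxGFP transgene and are not the level of the endogenous gene. Below, the libraries are called wild-type and mutant after their labels. With 1 library for each genotype there was no replicate, no test between genotypes was possible, and genotype cannot be told apart from library. The 95% intervals given are exact Poisson, conditional or binomial intervals and cover counting error only.

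The wild-type library held 2364 cells with 9451606 unique molecular identifiers (UMIs, 1 per captured transcript molecule), and the mutant library held 2592 cells with 8250248. Median depth per cell was 3866.5 and 2828 UMIs, and 2 cell barcodes of 14 bases occurred in both libraries, neither of them in a Scx-high cell. Tgfbr2 itself stood at 30.4 UMIs per 1000000 of the class (CPM, 25.7 to 35.7) in wild-type and 45.4 (33.6 to 60.04) in mutant Scx-high cells, and at 73.5 and 72.2 CPM in Scx-low mesenchymal cells. These counts tag the 3′ end of the transcript, outside the deleted part, and therefore check nothing about the deletion.

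Cells were sorted into classes without using either collagen gene. Scx-high cells had 30 or more Scx UMIs per 10000. Haemoglobin-rich cells were those in which haemoglobin genes took over 50% of the UMIs, and immune cells were called from 11 immune markers such as Ptprc and Tyrobp. After endothelial, mural, Schwann and muscle cells had been set aside by their own markers, the cells with at least 5 UMIs from at least 3 mesenchymal markers (Dcn, Pdgfra, Lum and others) formed the Scx-low mesenchymal class. The Scx-high class was checked against 7 tenocyte markers, of which Tnmd and Fmod are also among the mesenchymal markers. In wild-type Scx-high cells they summed to 162 per 10000 UMIs, against 27.7 in Scx-low mesenchymal cells, and in the mutant library the sums were 110 and 33.4.

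In the GRCm38 assembly, Col1a1 (ENSMUSG00000001506) lies at chr11:94936224-94953042 on the plus strand. Its main transcript has 51 exons and 5930 bases, of which 4362 are coding and 1423 are 3′ untranslated, and it encodes 1453 amino acids. Col1a2 (ENSMUSG00000029661) lies at chr6:4504814-4541544 on the plus strand, with 52 exons, 5348 bases, 4119 of them coding, 882 of them 3′ untranslated, and 1372 amino acids. Because each molecule was counted once from its 3′ end, counts of the 2 genes can be set side by side without scaling to length, although the efficiency of capture may differ between them. The last 60 bases of the coding regions, each within the last coding exon, end with the stop codon. They show how alike the coding parts of the 2 genes are there. They lie before the 3′ untranslated parts of 1423 and 882 bases, and so not at the end that was sequenced. Capitals mark the 43 positions (71.7%) at which both genes have the same base, at chr11:94951560-94951619 for Col1a1 and chr6:4540603-4540662 for Col1a2, in GENCODE transcripts.
Col1a1: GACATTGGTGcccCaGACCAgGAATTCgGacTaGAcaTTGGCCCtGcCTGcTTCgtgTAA
Col1a2: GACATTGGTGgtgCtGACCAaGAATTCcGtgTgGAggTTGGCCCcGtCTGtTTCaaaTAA
The longest run of bases common to both transcripts was 25, and the longest common to both 3′ untranslated parts was 16, so a read longer than that from the 3′ end belongs to 1 gene or the other.

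The promoter table of RefSeq (GRCm38.p6) held 1 of the 2 genes, Col1a2. Its window of 300 bases, chr6:4505368-4505667 with 250 bases before the annotated start and 61% G and C, was searched on both strands for 5 short motifs, since the 2 genes moved together in the cells described below. GGGCGG, the core of a Sp1 site, was found at 2 places and is held by 35.7% of the 32851 promoters of that length in the table. CAGAC, a Smad binding element, was found once and is held by 49.6%. These matches stand in capitals in a part of the window between annotated exons of Col1a2, and so within the annotated gene. It is labelled upstream because it lies before the RefSeq start.
Col1a2 upstream, chr6:4505370-4505492: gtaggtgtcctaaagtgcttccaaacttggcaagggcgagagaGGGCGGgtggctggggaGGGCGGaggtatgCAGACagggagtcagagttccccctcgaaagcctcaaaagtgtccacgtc
CCAAT was found at 2 places, 109 bases before the RefSeq start on the plus strand and at the start itself on the minus strand, and is held by 37.4% of promoters. Both lie within an annotated exon of Col1a2 and are shown in capitals with the bases around them.
Col1a2 CCAAT, chr6:4505497-4505526: aaaagaatggaaCCAATttaagaagccccg
Col1a2 CCAAT, minus strand, chr6:4505606-4505635: cctagccctcccATTGGtggagacgttttt
TATAA, held by 24.9% of promoters, and CANNTG, the E-box that basic helix-loop-helix factors such as scleraxis recognise, held by 72.3%, had 0 matches in this window. A match is a description of letters and not evidence of binding, and a missing match says only that the letters are not in these 300 bases.

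Over whole libraries, type I collagen made up 6.87% of all UMIs in the wild-type library and 1.802% in the mutant library, which is 3.81-fold less. Col1a1 was the most abundant gene of the wild-type library and Col1a2 the third, whereas in the mutant library they ranked 4 and 9. At least 1 type I collagen UMI was present in 99.4% of wild-type and 90.01% of mutant cells. The most extreme wild-type cell devoted 43.3% of its UMIs to the 2 genes, and the most extreme mutant cell 13.2%.

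The level depended first on the cell class. In the wild-type library, type I collagen was 12% of UMIs (11.97 to 12.03, 1164 cells) in Scx-high cells and 1.95% (1.93 to 1.96, 726 cells) in Scx-low mesenchymal cells, a ratio of 6.16 (6.11 to 6.22). Mural cells, the contractile cells around vessels, followed at 0.922% (154 cells), immune cells at 0.298% (181 cells) and haemoglobin-rich cells at 0.103% (88 cells). In the mutant library the order of these classes was the same but the steps differed. Scx-high cells stood at 3.25% (3.21 to 3.28, 234 cells), 1.69-fold (1.67 to 1.71) above Scx-low mesenchymal cells at 1.92% (1.90 to 1.93, 1840 cells). Mural, immune and haemoglobin-rich cells of the mutant library held 0.532% (100 cells), 0.222% (197 cells) and 0.011% (79 cells). The smaller classes of endothelial, Schwann and muscle cells held from 0.107% to 0.661% in both libraries, from 3 to 58 cells each, and are not ordered here.

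Set between libraries, the difference was large in Scx-high cells and small in Scx-low mesenchymal cells. The paper reports that most mutant tendon cells had lost ScxGFP at P7. A class of the same name therefore need not hold the same kinds of cell in both libraries. The paper's own contrast set wild-type tenocytes against mutant cells without tendon markers. Across the classes here, wild-type Scx-high cells held 12% and mutant Scx-low mesenchymal cells 1.92%. The mutant share was 0.271 of the wild-type share (0.268 to 0.274) in Scx-high cells, which is 3.69-fold lower. Col1a1 took 7.34% of wild-type and 2.04% of mutant UMIs, 3.60-fold lower (3.55 to 3.65), and Col1a2 took 4.65% and 1.21%, 3.85-fold lower (3.78 to 3.92). In Scx-low mesenchymal cells the ratio was 0.984 (0.974 to 0.995), with Col1a1 at 1.19% and 1.15% and Col1a2 at 0.756% and 0.765%. Which side of 1 the Scx-low ratio fell on depended on the processing, since it ran from 0.888 to 1.08 over the alternatives tried. Median depth was close in the Scx-high cells of both libraries (4303 and 4260 UMIs) and lower in mutant than in wild-type Scx-low mesenchymal cells (2868 and 3555.5). Genes that take 12% of the UMIs also lower the share of every other gene, and with type I collagen and haemoglobin left out of the total the Scx-high ratio was 0.246.

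**Figure D1:**
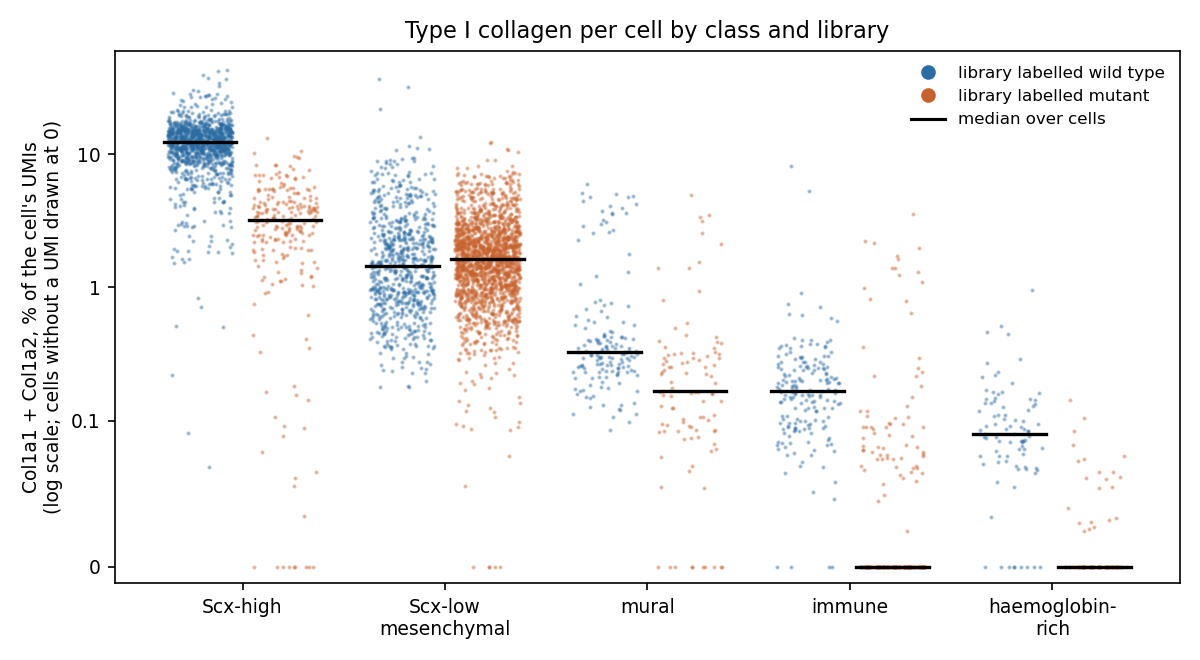
Type I collagen in every cell as a percent of the cell's UMIs, on a log axis, by class and library, with cells that had no such UMI drawn at 0 and black lines at the medians. Wild-type Scx-high cells cluster around 12.3%, mutant Scx-high cells around 3.19% with a tail to 0, and Scx-low mesenchymal cells of both libraries lie around 1.45% and 1.62%.

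The spread over cells differed as well. Among wild-type Scx-high cells the median was 12.3% of UMIs, the 10th percentile 6.90% and the 90th 17.0%, a 2.46-fold span. Among mutant Scx-high cells the median was 3.19%, the 10th percentile 0.369% and the 90th 6.49%, a 17.6-fold span. The 25th and 75th percentiles were 9.90% and 14.8% in wild-type and 1.92% and 4.38% in mutant Scx-high cells. The 10th percentile of the mutant class lay among 30 cells under 1%, which held markers of other cell types, as described below. The coefficient of variation over cells was 0.388 in the former and 0.666 in the latter, so mutant Scx-high cells were more uneven as well as lower. In Scx-low mesenchymal cells the order was opposite, with a coefficient of variation of 1.22 in the wild-type library (10th to 90th percentile 0.488% to 4.91%, median 1.45%) and 0.735 in the mutant library (0.616% to 3.69%, median 1.62%). The depth behind these values was ample, with a median of 489.5 type I collagen UMIs per wild-type and 128 per mutant Scx-high cell, and 47 and 46 per Scx-low mesenchymal cell.

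Counted by fixed levels, 1100 of 1164 wild-type Scx-high cells (94.5%, 93.0 to 95.7) had at least 5% type I collagen, against 46 of 234 mutant Scx-high cells (19.7%, 14.8 to 25.3). At 10% or more the counts were 864 (74.2%) and 3 (1.28%). The upper end of the wild-type range was therefore almost empty in mutant Scx-high cells, although 204 of them (87.2%) still had at least 1%. Among Scx-low mesenchymal cells, 69 of 726 (9.50%) and 93 of 1840 (5.05%) had at least 5%.

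The 2 libraries also differed in how many cells fell into each class. Scx-high cells were 49.2% of wild-type and 9.03% (7.95 to 10.2) of mutant cells, and held 90% and 23.6% of all type I collagen UMIs. Scx-low mesenchymal cells were 30.7% and 71.0% of cells and held 8.16% and 73.7% of those UMIs. In the wild-type library nearly all counted type I collagen thus came from Scx-high cells, and in the mutant library most of it came from Scx-low mesenchymal cells. Class makeup and level per class were exchanged between the libraries by arithmetic. With the wild-type level in each class and the mutant makeup of UMIs, type I collagen would be 2.99% of all UMIs, and with the mutant levels and the wild-type makeup it would be 2.31%, against the measured 6.87% and 1.802%. The classes were cut on Scx, so a cell low in both Scx and type I collagen counts towards makeup. These exchanges therefore do not divide the difference between libraries into separate parts. How many cells of each class a digest releases was not measured, so these shares describe the libraries and not the tendon.

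**Figure D2:**
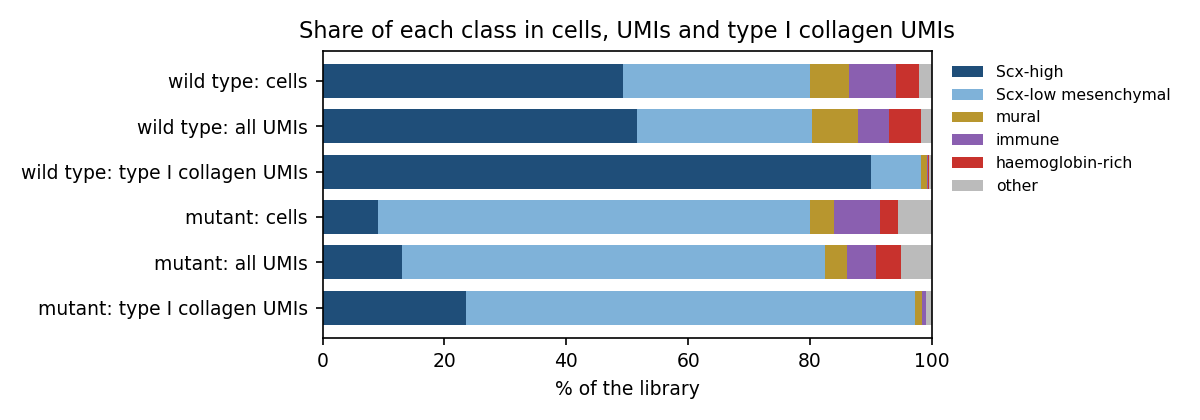
Stacked bars of the share of cells, of all UMIs and of type I collagen UMIs that each cell class held, in percent of the library on the horizontal axis, with the remaining cells as other. Scx-high cells hold 49.2% of the cells and 90% of the type I collagen UMIs in the wild-type library, and 9.03% and 23.6% in the mutant library.

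Detection of type I collagen in cells that should not make it set the background. Immune cells and haemoglobin-rich cells of the red blood lineage are not known as sources of fibrillar collagen, yet 97.8% of wild-type immune cells (median depth 2380 UMIs) and 89.8% of wild-type haemoglobin-rich cells (5682 UMIs) had at least 1 type I collagen UMI. In the mutant library the shares were 38.1% (1704 UMIs) and 27.8% (4451 UMIs). At these depths a mere UMI says little about expression, and levels are used here instead. The level in Scx-low mesenchymal cells was 18.9-fold that in haemoglobin-rich cells of the wild-type library and 168-fold that of the mutant library, where only 38 UMIs were counted over the 79 haemoglobin-rich cells. With the haemoglobin-rich share subtracted as background, the ratio of mutant to wild-type Scx-low mesenchymal cells was 1.03. Wild-type immune and haemoglobin-rich cells both had a median of 4 type I collagen UMIs per cell, at different depths. A share taken from the deeper haemoglobin-rich cells may therefore understate the background of shallower cells.

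Within immune cells, a few cells held much of the type I collagen. In the wild-type library 2 of 181 immune cells had at least 1% and held 42.3% of the class total. In the mutant library 11 of 197 (5.58%) had at least 1% and held 78.5% of the class total, and mesenchymal markers summed to 215 per 10000 in those 11 against 9.76 in the other 186, whose type I collagen share was 0.05%. Thus in most mutant immune cells the level was low, and the cell median was 0 (0.167% in wild-type immune cells). The 0.05% of those 186 cells still lay above the 0.011% of mutant haemoglobin-rich cells.

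Along Scx, the level rose mostly over the middle bins in the wild-type library. In wild-type cells of the 2 classes, type I collagen was 1.78% of UMIs with no Scx UMI (224 cells), 1.51% with up to 5 per 10000 (256 cells) and 2.17% with 5 to 15 (187 cells). It was 5.01% at 15 to 30, just below the class limit (59 cells), 5.73% at 30 to 60, just above it (50 cells), and then 11.4%, 12.5% and 12.2% at 60 to 120, 120 to 240 and 240 or more. The wild-type level therefore rose mainly from the bin of 5 to 15 to that of 60 to 120 Scx UMIs per 10000, through intermediate values. It varied much less on either side. In mutant cells the level moved far less, from 1.81% with no Scx UMI (1438 cells) through 2.02% (231), 2.38% (130), 3.08% (41), 2.23% (51), 3.59% (50) and 3.67% (46) to 3.31% at 240 or more (87).

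Background Scx differed between the libraries, at 5.51 per 10000 UMIs in wild-type and 0.814 in mutant immune cells. Bins below 15 per 10000 therefore need not match cells by their own Scx. Within the same Scx bins the ratio of mutant to wild-type was 1.02 (0.9999 to 1.04) with no Scx UMI, 1.33 (1.31 to 1.36) up to 5 and 1.09 (1.06 to 1.12) at 5 to 15. It was 0.615 (0.592 to 0.637) at 15 to 30, 0.390 (0.376 to 0.405) at 30 to 60, and 0.316, 0.294 and 0.271 in the 3 bins above. The low type I collagen of mutant Scx-high cells was thus measured at Scx counts as high as those of the wild-type library, whose class means were 279 (mutant) and 255 (wild-type) Scx UMIs per 10000. Since ScxGFP counts as Scx, this match is of the gene and reporter together. The paper proposes that cells with ScxGFP in mutant tendons were newly recruited, as some had little or no Cre reporter. Mutant Scx-high cells therefore need not be tenocytes that kept Scx.

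**Figure D3:**
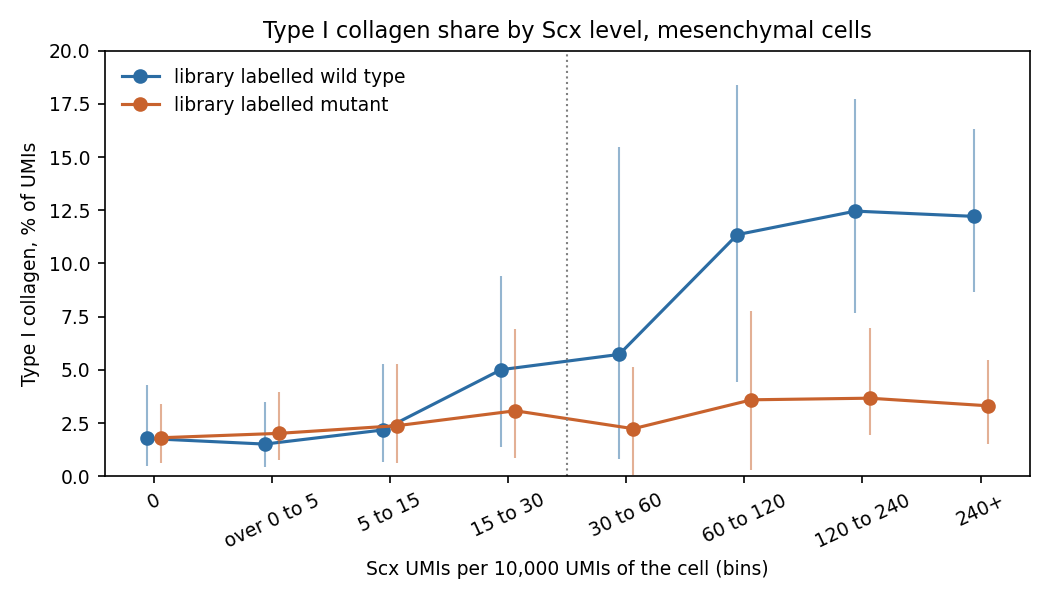
Type I collagen as a percent of UMIs in bins of Scx UMIs per 10000, for Scx-high and Scx-low mesenchymal cells of each library. Points joined by lines are pooled shares, bars run from the 10th to the 90th percentile of cells, and the dotted line marks 30 per 10000. The mutant points lie at or above the wild-type points below 15 and below them from 15 on, with 1.51% against 2.02% (mutant) up to 5 and 12.2% against 3.31% at 240 or more.

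Inside the Scx-high class the rank correlation of type I collagen with Scx over cells, after each cell was thinned to 1500 UMIs, was weak in both libraries (Spearman's rho of 0.095 over 1078 wild-type and 0.168 over 215 mutant cells). Cells of 1 library share its preparation and background, so these values are descriptions. The correlation with Tnmd was -0.21 in wild-type and 0.61 in mutant Scx-high cells. With type I collagen and the gene compared left out of the total, the wild-type and mutant values were -0.12 and 0.65 for Tnmd. For Scx they were 0.20 and 0.22. The cells of each library were also sorted by type I collagen into 4 groups of equal size. From the lowest to the highest group of wild-type cells (7.07%, 11.2%, 13.5% and 17.2% type I collagen), Tnmd went from 82.4 through 79.7 and 70.5 to 61.8 per 10000. From the lowest to the highest group of mutant cells (0.932%, 2.62%, 3.74% and 6.02%), Tnmd went from 11.0 through 50.7 and 74.0 to 78.3. Tnmd thus ran in opposite directions along type I collagen in the 2 libraries, although part of the wild-type fall follows from the share that type I collagen itself takes. The lowest mutant group also held muscle and mural marker sums of 19.7 and 17.5 per 10000, against 0.582 and 3.99 in the highest. The part of such cells in the mutant rise was not tested. The upper 2 mutant groups had Tnmd levels within the wild-type range, while type I collagen in every mutant group was below that of the lowest wild-type group.

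At matched Tnmd levels in Scx-high cells, the ratio of mutant to wild-type was 0.279 (0.271 to 0.287) at 10 to 30 Tnmd UMIs per 10000, 0.266 (0.260 to 0.271) at 30 to 60, 0.338 (0.332 to 0.345) at 60 to 100 and 0.434 (0.424 to 0.445) at 100 or more. In the last of these bins type I collagen was 10.3% in 216 wild-type and 4.49% in 36 mutant cells. Of the mutant Scx-high cells, 37 had no Tnmd UMI and held 0.834% type I collagen, while only 2 wild-type Scx-high cells lacked Tnmd. Restricting the class to cells with a Tnmd UMI gave a ratio of 0.304 between libraries and of 1.91 between mutant Scx-high and Scx-low mesenchymal cells. The lower share in mutant Scx-high cells was thus also measured in cells that carried Tnmd.

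Markers of other cell types moved with low type I collagen in the Scx-high class. The 30 mutant Scx-high cells with under 1% type I collagen had 44.4 muscle marker UMIs per 10000, of which Myog, a regulator of muscle differentiation, made up 30.7, as well as 30.4 of Acta2, smooth muscle actin, and 4.42 of Tnmd. The 9 mutant Scx-high cells without any type I collagen UMI had a median depth of 2744 UMIs and 146 Scx, 47.7 Myog and 42.3 Acta2 UMIs per 10000. In the highest of the 4 mutant groups, muscle markers summed to 0.582 and mural markers to 3.99, against 19.7 and 17.5 in the lowest. In all, 26 of 234 mutant Scx-high cells (11.1%) and 33 of 1164 wild-type Scx-high cells (2.84%) also passed the rule of another cell type. Those 26 held 1.53% type I collagen and the remaining mutant Scx-high cells 3.48%, so that without such cells in both libraries the ratio was 0.288 in place of 0.271. The part of these markers in the rest of the spread was not tested.

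At the other end, 52 wild-type Scx-high cells had 20% type I collagen or more. Their median depth was 1810 UMIs, against 4415 in the other 1112, and they held 4.58% of the class total. Over all wild-type Scx-high cells the rank correlation of the share with depth was -0.16.

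Among Scx-low mesenchymal cells, type I collagen had a higher rank correlation with Tnmd than with Scx. The class limit cut off the range of Scx and not that of Tnmd. Scx was also near background, at 4.35 per 10000 UMIs in wild-type and 1.66 in mutant cells, against 5.51 and 0.814 in immune cells. The weaker relation to Scx may thus partly follow from the class rule, which was not tested. The rank correlation with Tnmd was 0.47 over 680 wild-type and 0.42 over 1661 mutant cells, and that with Scx was 0.20 and 0.10. Cells with 10 or more Tnmd UMIs per 10000 had 2.76-fold (2.71 to 2.81) the share of those below in the wild-type library (4.17% of 145 cells against 1.51% of 581) and 2.00-fold (1.97 to 2.02) in the mutant library (3.10% of 421 against 1.55% of 1419). Cells with at least 1 Scx UMI had 1.13-fold and 1.23-fold the share of those with none. At a Tnmd of 0 the pooled share was 1.45% in 381 wild-type and 1.45% in 949 mutant cells (ratio 0.999, 0.982 to 1.016), while the cell median was 1.04% and 1.34%. With up to 10 Tnmd UMIs per 10000 the ratio was 1.08 (1.06 to 1.10, 200 wild-type and 470 mutant cells), at 10 to 30, 30 to 60 and 60 to 100 it was 0.764, 0.819 and 0.744, and at 100 or more it was 0.986. The ratio thus lay on both sides of 1 over these bins.

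The Scx-low mesenchymal cells with at least 5% type I collagen were rich in tenocyte markers. The 69 wild-type cells had 47.8 Tnmd UMIs per 10000 and a tenocyte sum of 105, against 21.3 for the sum in the other 657, and held 28.3% of the class total. The 93 mutant cells had 44.4 Tnmd and a sum of 102, against 30.4 in the other 1747, and held 14.0%. Scx itself stood at 10.3 and 4.65 per 10000 in these cells, far below the class limit.

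Ly6a ran the other way, weakly so over mutant cells. After thinning, its rank correlation with type I collagen was -0.26 in wild-type and -0.12 in mutant Scx-low mesenchymal cells. With type I collagen and Ly6a left out of the total it was -0.20 and -0.07. In wild-type Scx-low mesenchymal cells, type I collagen was 3.22% with no Ly6a UMI (262 cells), 1.49% with up to 10 per 10000 (154 cells), 1.22% at 10 to 30 (202 cells) and 1.58% at 30 or more (108 cells). In mutant cells it was 2.24% (867 cells), 1.73% (389), 1.63% (405) and 1.54% (179). The step lay between cells without and with Ly6a, and levels among the Ly6a-positive bins differed by less than that step. Ly6a-positive over Ly6a-negative cells gave 0.432 (0.424 to 0.439) in the wild-type and 0.736 (0.727 to 0.744) in the mutant library. A cell without a Ly6a UMI can be a shallow cell, and with each cell thinned to 1500 UMIs the ratios were 0.541 and 0.765.

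Tnmd and Ly6a were not independent of each other. Wild-type Ly6a-negative cells held 36.3 Tnmd UMIs per 10000 against 2.31 in Ly6a-positive cells, and mutant cells 16 against 6.08. Among cells with a Tnmd under 10, the Ly6a-positive to Ly6a-negative ratio was 0.592 (0.579 to 0.606) in the wild-type and 0.917 (0.903 to 0.931) in the mutant library. Among those at 10 or more it was 0.685 (0.654 to 0.717), with 17 Ly6a-positive cells, and 0.710 (0.695 to 0.725). Below a Tnmd of 10, the mutant library thus had 1.499% in Ly6a-positive and 1.63% in Ly6a-negative cells, levels that lay closer together than the wild-type values of 1.33% and 2.25%. In Scx-high cells Ly6a was nearly absent (0.314 and 0.741 UMIs per 10000), and the 73 wild-type and 29 mutant cells with a Ly6a UMI had 9.81% and 2.90% type I collagen, against 12.2% and 3.30% in those without.

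The ratio of the chains differed little between classes and libraries whose levels differed several-fold. Counted over cells, Col1a1 exceeded Col1a2 by 1.58-fold (1.57 to 1.59) in wild-type and 1.69-fold (1.65 to 1.72) in mutant Scx-high cells, and by 1.57-fold (1.55 to 1.602) and 1.505-fold (1.49 to 1.52) in Scx-low mesenchymal cells. All 4 values are below the ratio of 2 at which the chains are assembled, on counts whose capture efficiency may differ between the genes. The mutant value was the higher one in Scx-high and the lower one in Scx-low mesenchymal cells, so the chain ratio did not shift in 1 direction. In classes not known as sources of fibrillar collagen, the ratio was 1.58 (1.42 to 1.76) in wild-type and 1.14 (1.0 to 1.31) in mutant immune cells, and 1.95 (1.62 to 2.36) and 1.38 (0.69 to 2.801) in haemoglobin-rich cells.

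In single cells with at least 20 type I collagen UMIs, Col1a1 was the larger count in 1155 of 1159 wild-type and 202 of 207 mutant Scx-high cells, and in 569 of 633 and 1340 of 1556 Scx-low mesenchymal cells. The Col1a1 part of the pair had a median of 61.2% (10th to 90th percentile 56.5% to 68.8%) in wild-type and 62.7% (54.2% to 71.7%) in mutant Scx-high cells. Its standard deviation over cells, 5.04 and 7.01 percentage points, exceeded the 2.68 and 4.74 that counting alone would give. In Scx-low mesenchymal cells it also exceeded counting error (8.33 against 6.91, and 8.77 against 7.10). Counting error was larger there because fewer type I collagen UMIs were counted per cell. These pairs therefore do not rank the classes by their spread beyond counting. The levels of the chains moved together over cells in every one of these classes, with Spearman's rho of 0.812 and 0.899 in Scx-high and 0.907 and 0.826 in Scx-low mesenchymal cells, where both share the depth of the cell.

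**Figure D4:**
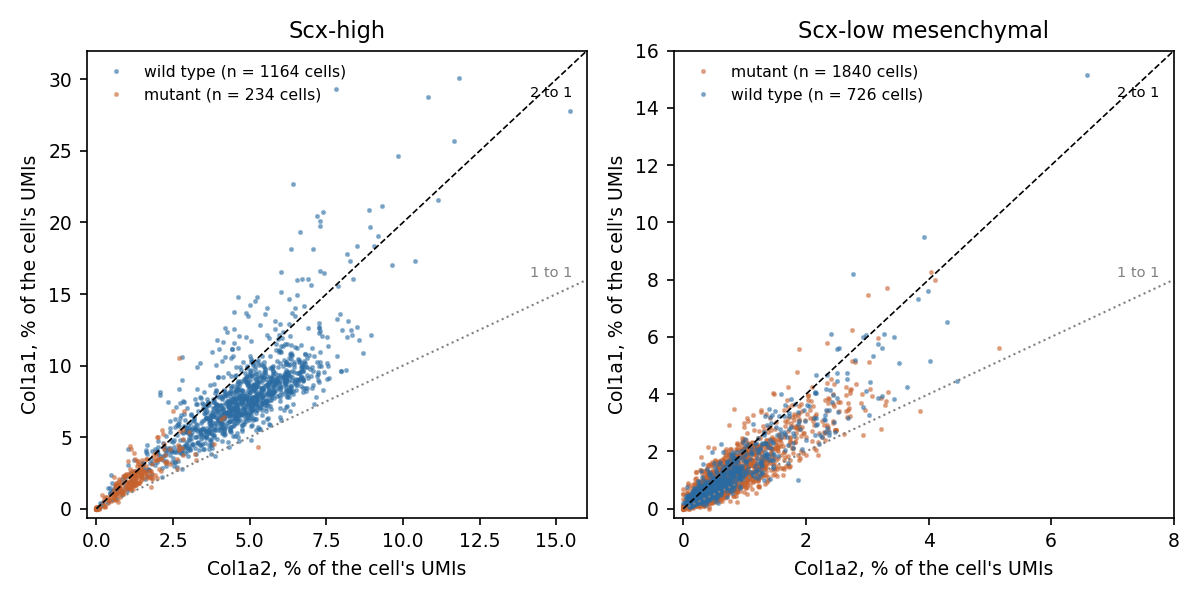
Col1a1 (vertical axis) against Col1a2 (horizontal axis) in each Scx-high cell (left) and Scx-low mesenchymal cell (right), each as a percent of the cell's UMIs on linear axes, coloured by library, with a dotted line at 1 to 1 and a dashed line at 2 to 1. Most cells of both libraries lie between the lines, at pooled ratios of 1.505 to 1.69, some lie above the dashed line, and 2 Scx-low mesenchymal cells fall outside the axes.

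Some cells had a chain ratio of 2 to 1 or more. They were 183 of 1159 wild-type Scx-high cells (15.8%, 13.7 to 18.02) and 64 of 207 mutant ones (30.9%, 24.7 to 37.7), and 23.4% and 22.0% of Scx-low mesenchymal cells. The 183 wild-type cells had a median of 2247 UMIs and 951 genes, against 4560.5 UMIs and 1544 genes in the remaining cells, with a similar type I collagen share (12.3% and 12%). Mitochondrial genes took 0.852% of their UMIs against 0.465%, and the part of depth and of this share in the chain ratio was not tested. Sparc, a collagen-binding matrix protein, was lower in them (360 against 572 per 10000), and Fmod, which encodes the fibril-binding proteoglycan fibromodulin, was not (56.5 against 53.0). The 64 mutant cells had a median depth of 3605 against 4776 UMIs and 0.552% against 0.446% mitochondrial UMIs. In the wild-type library the chain ratio was also highest near the class limit, at 1.88 for 15 to 30 and 1.90 for 30 to 60 Scx UMIs per 10000 and 1.54 at 240 or more, whereas in the mutant library it lay between 1.598 and 1.74 over the same bins. The share of these cells also contains counting error, which is larger where fewer type I collagen UMIs were counted.

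Type I collagen was set beside the other fibrillar collagens (types II, III, V and XI). Of all fibrillar collagen UMIs, type I made up 96.3% (96.3 to 96.4) in wild-type and 81.8% (81.4 to 82.1) in mutant Scx-high cells. Type III, a fibrillar collagen of looser connective tissue, made up 0.438% and 11.5%, and type V, which helps to start fibrils, 0.266% and 4.87%. In Scx-low mesenchymal cells the mix was similar in both libraries, with 65.0% and 66.9% type I and 29.2% and 27.5% type III. For each Col3a1 UMI there were 135 Col1a1 UMIs in wild-type Scx-high cells, 4.45 in mutant Scx-high cells, and 1.36 and 1.46 in Scx-low mesenchymal cells. The fibrillar mix of mutant Scx-high cells thus lay between that of wild-type Scx-high cells and that of the Scx-low mesenchymal cells.

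The genes that fold, trim, cross-link, bind or degrade type I collagen were followed as a list of 60, of which 52 reached a mean of 0.1 UMI per cell in Scx-high cells of either library. In those cells 14 of the 52 (26.9%) were at least 2-fold lower in the mutant library and 15 (28.8%) at least 2-fold higher. Of all 5110 genes with that mean, 4.15% were at least 2-fold lower and 14.3% at least 2-fold higher. Among the higher partner genes, Mmp13, Col5a3, P4ha2 and Itga11 reached that mean only in the mutant library, where they were high. The count of higher genes, also by role below, thus partly follows from this minimum, which was the same for all genes. The median log2 ratio was 0.20 over the list and 0.37 over all genes, and with each ratio taken relative to the latter 15 were lower and 12 higher (7.95% and 7.87% of all genes). The list held more genes past 2-fold than all genes did, in both directions, and did not follow the 2 collagen genes as a whole. Some of its genes were known from earlier results of these data when it was chosen. The excess over all genes may follow from that choice and is not a result about the list. By size of ratio from the lowest, Col1a2 was 57th and Col1a1 63rd of the 5110.

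By role, the 19 chaperones and hydroxylases had 3 genes at least 2-fold lower, 3 higher and 13 between, with a median log2 ratio of -0.11. P4ha1, a catalytic subunit of prolyl 4-hydroxylase, which stabilises the collagen helix, went from 832 to 131 CPM, 6.37-fold lower (5.38 to 7.59). The 3 higher genes included its relatives P4ha2 (9.85 to 46.3 CPM, 4.70-fold) and P4ha3 (69.0 to 182 CPM, 2.63-fold). The remaining higher gene was Plod2 (49.7 to 292 CPM, 5.88-fold). Crtap, a partner of prolyl 3-hydroxylase, went from 422 to 134 CPM, 3.14-fold lower (2.65 to 3.74). Creb3l1, a membrane-bound transcription factor that activates collagen genes, stood at 425 and 153 CPM, a ratio of 0.360 (0.305 to 0.422), and Serpinh1, the collagen chaperone HSP47, at 3826 and 2511 CPM, a ratio of 0.656 (0.630 to 0.683). Serpinh1 thus differed less between libraries than the collagens it folds, and P4ha1 more.

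All 4 of the 7 propeptide processing genes that passed the minimum were at least 2-fold lower in mutant Scx-high cells. Pcolce, an enhancer of the protease that removes the C-propeptide, stood at 4502 and 2047 CPM (2.20-fold lower, 2.11 to 2.30), and its relative Pcolce2 at 382 and 71.4 CPM (5.36-fold lower, 4.27 to 6.82). Of the cross-linking enzymes 4 of 5 passed, with 1 lower and 1 higher, and Lox, which starts cross-links by oxidising lysines, stood at 431 and 615 CPM, a ratio of 1.43 (1.31 to 1.56).

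The 15 fibril partners had 5 genes lower, 5 higher and 5 between. Col11a2, a chain of the fibril-nucleating type XI collagen, went from 1874 to 229 CPM, 8.19-fold lower (7.21 to 9.33), and Sparc from 54979 to 17686 CPM, 3.11-fold lower (3.06 to 3.16). In the other direction, Col5a1 went from 53.4 to 804 CPM, 15.1-fold higher (13.1 to 17.4), Col3a1 from 546 to 4582 CPM, 8.39-fold higher (8.01 to 8.80), Col5a3 from 7.80 to 57.5 CPM, 7.37-fold higher (4.84 to 11.3), and Lum, which encodes the small proteoglycan lumican, from 95.4 to 657 CPM, 6.89-fold higher (6.12 to 7.76). Of the receptors and turnover genes 10 of 14 passed, with 6 higher and 1 lower. Of the 6, Mmp2 (2.40-fold), Timp2 (2.27-fold) and Mmp14 (2.07-fold) lay under 2-fold relative to the median ratio of all genes. Mmp13, a collagenase, had 0 UMIs in wild-type and 29 in mutant Scx-high cells, which is at least 43.7-fold higher when 3 UMIs are taken as the floor of the wild-type class.

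Col3a1 and Col5a1 set the classes apart in the wild-type library. Scx-high over Scx-low mesenchymal cells gave 0.062 for Col3a1 and 0.093 for Col5a1, whereas P4ha1 (5.98), Sparc (4.56) and Creb3l1 (4.15) were higher in Scx-high cells. In the mutant library the same ratios were 0.582, 1.47, 1.64, 1.52 and 1.59. For these 5 genes, as for type I collagen (6.16 and 1.69), the ratio between the classes was thus nearer to 1 in the mutant library, and for Col5a1 it lay on the other side of 1.

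In Scx-low mesenchymal cells the list behaved differently. Of the 50 genes that passed, 3 (6.0%) were at least 2-fold lower and 4 (8.0%) at least 2-fold higher in the mutant library, against 5.14% and 3.23% of all 4764 genes. Here Mmp13 reached the minimum mean only in the mutant library and Col11a2 only in the wild-type library. The median log2 ratio was 0.12 over the list and -0.05 over all genes, and Col1a1 and Col1a2 ranked 2369th and 2789th of the 4764. The lowest were Col11a2 (59.1 to 14.5 CPM), Pcolce2 (121 to 34.3), Col5a3 (197 to 96.9), P4ha2 (122 to 62.2) and P4ha1 (139 to 79.5). The highest were Mmp13 (0 to 213 UMIs, at least 33.8-fold), Lox (108 to 258 CPM, 2.39-fold, 2.11 to 2.72), the gelatinase Mmp2 (367 to 801, 2.18-fold), the membrane-bound collagenase Mmp14 (329 to 711, 2.16-fold) and Thbs4 (382 to 706, 1.85-fold), a thrombospondin of tendon matrix. Serpinh1 (ratio 1.07), Creb3l1 (0.938), Pcolce (1.29), Sparc (0.968), Col3a1 (0.900) and Col5a1 (0.958) lay closer to 1. Pcolce2 and Col11a2 were thus at least 2-fold lower in both classes, and Mmp13 at least 2-fold higher. Mmp2 (2.40-fold in Scx-high cells) and Mmp14 (2.07-fold, 1.88 to 2.27) were also past 2-fold in both. Relative to the median log2 ratio of 0.37 over all genes in Scx-high cells, Mmp2 and Mmp14 lay under 2-fold in that class. Lox stood at a larger ratio in Scx-low mesenchymal than in Scx-high cells.

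**Figure D5:**
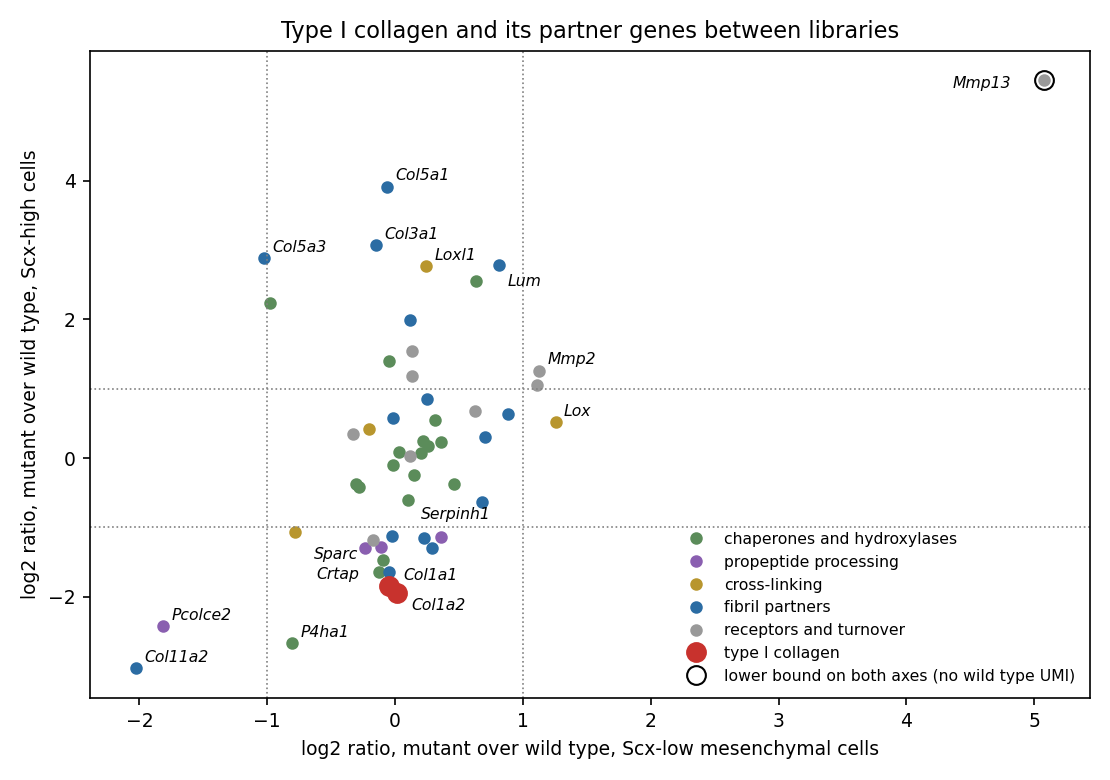
Log2 ratio of mutant to wild-type CPM in Scx-high cells (vertical axis) against that in Scx-low mesenchymal cells (horizontal axis) for the 50 partner genes that passed in both classes, coloured by role, and for Col1a1 and Col1a2, with dotted lines at 2-fold and a ring around Mmp13, a lower bound on both axes. The collagens lie near -1.85 and -1.95 in Scx-high cells and near 0 in Scx-low mesenchymal cells, while partner genes spread to both sides.

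Genes whose pattern was most like that of the 2 collagens were found on 2 scales. Over the 15 sums of a class in a library with at least 20 cells, and 3864 genes, the correlation of log2(CPM + 10) with the type I collagen sum was highest for Dcn (Pearson's r of 0.947), Tnmd (0.942), Thbs3 (0.942), Col6a2 (0.941) and Col6a1 (0.935), and Col1a1 with Col1a2 gave 0.991. Dcn, Tnmd, Col6a2 and Col6a1 are among the mesenchymal markers that formed the Scx-low mesenchymal class, so their likeness partly follows from the class rule, and the sums of a library share its background. Over single Scx-high cells the genes differed between libraries. In 1164 wild-type cells the highest rank correlations were those of Col11a2 (0.568), Fmod (0.472), Col2a1 (0.430), Sema3b (0.420) and Sparc (0.388). In 234 mutant cells they were those of 1500015O10Rik (0.673), Pcolce (0.669), Sparc (0.642), Fmod (0.620) and Tnmd (0.601). Fmod and Sparc were among the 5 in both libraries, whereas Tnmd was among them in the mutant library and Col11a2 in the wild-type library.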

How the data were processed

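Cell Ranger (2.0 in the study's methods, 1.2.0 in the submitters' processing notes) was run by the authors on 10x Genomics 3′ reads with mm10 as the reference, and barcodes were kept by how many UMIs they held in all. The counts they deposited are whole numbers of UMIs for every gene in every cell and were not normalized. All barcodes were used. Scrublet in Scanpy 1.11.5, at an expected rate of 2%, called 0.423% and 0.193% of cells as doublets, too few to be relied on, and none were removed. Counts were pooled within each class and divided by the class total, with Python 3.11.15, NumPy 2.4.6, SciPy 1.17.1 and pandas 2.3.3. Other cell types needed 3 UMIs from 2 markers and 10 per 10000, and cells with both immune markers and a Scx of 30 or more were left out as mixed. The ratio code was tested on simulated data. Thinning to 1500 UMIs left out 199 wild-type and 328 mutant cells. Of the partner genes, the 5 largest ratios in each direction and class were named, with 8 named in any case. Myog, Acta2, P4ha3, Plod2, Itga11 and Timp2 were named after their values were seen, as was P4ha2 for Scx-high cells. Members and lists were chosen with earlier results of these data known.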

Additional observations from a re-analysis of the deposited data

How the results depend on the processing

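Of 80 alternatives to the 8 main values, 48 moved a ratio by less than its counting interval, 25 by more and 0 reversed a direction that had been called. The other 7 concerned the count of partner genes at least 2-fold apart, which stayed within 1.5 times the reported 29, between 24 and 31, with 10 to 16 lower and 11 to 15 higher. A direction counted as called only where the main ratio was at least 2-fold from 1. Of the ratios, only 0.271 (mutant to wild-type, Scx-high cells) and 6.16 (Scx-high over Scx-low mesenchymal cells, wild-type library) could therefore count as reversed. The Scx-low mesenchymal ratio, which crossed 1, could not. Some alternatives could not move some values, since no barcode found in both libraries was Scx-high and no mutant Scx-high cell was called a doublet. No paired analysis was possible because each genotype had 1 library.

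For the mutant to wild-type ratio in Scx-high cells (0.271), a Scx limit of 60 gave 0.283 and leaving haemoglobin and type I collagen out of the total gave 0.246. In Scx-low mesenchymal cells (0.984), Scx limits of 15 and 60 gave 1.08 and 0.894, cells with 500 genes and under 10% mitochondrial UMIs 0.996, the mean of per-cell values 0.888, thinning 0.943 and subtracting the haemoglobin-rich share 1.03. For Scx-high over Scx-low mesenchymal cells in the wild-type library (6.16), these changes gave 6.70 (limit 15), 5.63 (limit 60), 5.60 (per-cell mean), 5.95 (thinning), 6.87 (total) and 6.45 (subtraction), and in the mutant library (1.69) 1.78 (limit 60), 1.72 (per-cell mean) and 1.72 (total). The Ly6a-positive to Ly6a-negative ratio of the mutant library (0.736) became 0.715 with per-cell means, 0.765 with thinning and 0.749 with unclassed cells added, and the wild-type chain ratio in Scx-high cells (1.58) became 1.63 with per-cell means. Alternatives chosen after seeing the data left out Scx-high cells of another type (0.288 and 1.82 for the mutant to wild-type and the mutant class ratio) or those without Tnmd (0.304 and 1.91). Causes of these shifts were not tested. The lowest share, that of mutant haemoglobin-rich cells, rests on 38 UMIs.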
